A study of Homo sapiens with 3 samples.

Results

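The genes described here are 9 genes of MHC class I antigen presentation, measured by RNA sequencing in the esophageal squamous carcinoma line KYSE30. They were taken from the 60554 rows of the gene count table by matching gene identifiers to the symbols HLA-B, HLA-C, HLA-E, HLA-F, B2M, TAP1, TAP2, TAPBP and NLRC5, and all 9 were found. KYSE30 is an established human cell line. The study asked what differs in the transcriptome when SNORD12B, a small nucleolar RNA, is targeted by shRNA. A control line was set against a pair of lines that each carried a different shRNA, with 1 library per line (3 in all). All lines were grown with 10% fetal bovine serum, given virus made with the pLKO.1 vector system for 24 hours, and kept under 5 ug/mL blasticidin for 2 weeks of selection. The shRNA lines are called sh1 and sh2 after the numbers in their labels. The control is labelled a vector, while the protocol text gives it a scrambled shRNA with no target. The shRNA lines are stable selected populations, and nothing in the labels names replicate cultures of any of the lines.

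MHC class I molecules display short peptides from the cell's own proteins at its surface, where CD8 T cells and natural killer cells inspect them. Proteasomes cut the proteins, the TAP transporter carries the peptides into the endoplasmic reticulum, and tapasin helps load them onto a heavy chain that is paired with beta-2-microglobulin. In epithelial cells the genes of this machinery are expressed at a basal level and are induced by interferon, through response elements in their promoters and through the transactivator NLRC5. Tumours can escape T cells when they lose parts of it.

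Library depth and cell identity bear on every value below. The libraries held 15146805 to 17336936 counts, and the 9 genes took 0.218% of them in the control, 0.191% in the library labelled sh1 and 0.286% in the library labelled sh2. SNORD12B itself was counted 7 times in the control, 15 times with the label sh1 and 1 time with the label sh2, so these few reads show no knockdown in the library labelled sh1. The 4 epithelial markers (EPCAM, CDH1, KRT8 and KRT18) summed to between 6720 and 6950 CPM (counts scaled to library size) in the 3 libraries. Most of that sum was KRT8, at 4366, 4335 and 4340 CPM in the control, sh1 and sh2 libraries. CDH1 varied more, at 632.7, 448.9 and 678 CPM in the same order. The 6 squamous markers summed to 549 CPM in the control, 210 CPM with the label sh1 and 289 CPM with the label sh2, and KRT5 stayed under 1 CPM in each library. Of 5 leukocyte markers, 4 were under 1 CPM in every library, and their sum lay between 0.632 and 1.3 CPM. Of 4 markers of professional antigen-presenting cells, CD80, CD86 and CD1C had 0 counts in each library, and the sum of the 4 lay between 0.26 and 0.287 CPM. The 3 endothelial markers summed to 3.71, 0.921 and 5.81 CPM in the control, sh1 and sh2 libraries. Of 5 fibroblast markers, COL1A2, DCN and LUM had 0 counts in each library, PDGFRB was under 1 CPM, and COL1A1 was at 15.95, 9.34 and 13.2 CPM in the same order.

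The upstream sequences of these genes show the elements through which the class I pathway is known to be controlled. RefSeq promoters (GRCh38.p14) matched 7 of the 9 genes by symbol, and the 250 bases before the annotated start were searched on both strands for 4 motifs. The first was GAAA followed by 2 bases of any kind and GAAA again, the core of the interferon-stimulated response element. The others were CCAAT, bound by NF-Y, TGACG, a core bound by CREB and ATF1, and the NF-kB consensus. The following 5 are printed because they include a pair of heavy chain genes of the same type, the light chain, and the 2 TAP subunit genes, whose levels differed in direction. Capitals mark the matches, some of which overlap each other, and the letters are those of the reference and not of the alleles carried by KYSE30.
HLA-B, chr6:31357180-31357429, minus strand: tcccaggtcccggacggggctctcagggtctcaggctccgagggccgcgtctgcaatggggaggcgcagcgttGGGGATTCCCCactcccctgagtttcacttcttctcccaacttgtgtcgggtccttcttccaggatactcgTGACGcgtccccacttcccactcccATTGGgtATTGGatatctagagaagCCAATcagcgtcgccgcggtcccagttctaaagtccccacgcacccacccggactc
HLA-C, chr6:31272093-31272342, minus strand: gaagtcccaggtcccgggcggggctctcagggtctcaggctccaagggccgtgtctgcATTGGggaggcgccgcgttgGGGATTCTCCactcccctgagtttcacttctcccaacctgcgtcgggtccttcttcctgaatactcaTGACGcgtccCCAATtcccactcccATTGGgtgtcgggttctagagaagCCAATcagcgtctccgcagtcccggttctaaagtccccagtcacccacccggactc
B2M, chr15:44711267-44711516, plus strand: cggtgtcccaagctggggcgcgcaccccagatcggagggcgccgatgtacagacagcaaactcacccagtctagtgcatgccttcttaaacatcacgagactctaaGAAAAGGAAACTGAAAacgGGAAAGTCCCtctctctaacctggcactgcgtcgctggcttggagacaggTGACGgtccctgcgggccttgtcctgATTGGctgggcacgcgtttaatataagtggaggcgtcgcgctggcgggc
TAP1, chr6:32853705-32853954, minus strand: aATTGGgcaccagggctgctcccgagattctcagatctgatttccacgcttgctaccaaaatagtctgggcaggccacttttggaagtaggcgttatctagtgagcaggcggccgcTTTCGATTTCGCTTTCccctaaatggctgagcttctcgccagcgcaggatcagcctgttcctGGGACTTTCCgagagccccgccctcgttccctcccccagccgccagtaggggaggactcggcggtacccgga
TAP2, chr6:32838740-32838989, minus strand: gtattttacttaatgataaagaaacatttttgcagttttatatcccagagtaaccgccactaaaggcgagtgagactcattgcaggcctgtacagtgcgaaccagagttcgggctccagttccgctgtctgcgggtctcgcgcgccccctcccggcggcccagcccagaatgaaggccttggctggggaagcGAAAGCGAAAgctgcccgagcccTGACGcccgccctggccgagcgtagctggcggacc

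The HLA-B and HLA-C promoters each held an NF-kB match, which begins 177 and 172 bases before the start, TGACG nearer to the start and CCAAT matches on both strands. HLA-C held 4 CCAAT matches, 1 of them further from the start than its NF-kB match, and HLA-B held 3, each nearer to the start than TGACG. The interferon response core was found in 5 of the 7 promoters (HLA-F, B2M, TAP1, TAP2 and TAPBP), against 3.02% of 35116 promoter windows of the same length. An NF-kB match was found in 5 of 7 (9.96% of all windows), CCAAT in 5 of 7 (32%) and TGACG in 4 of 7 (21.2%). TAP2 differed from TAP1 in holding TGACG and neither an NF-kB nor a CCAAT match. A match is a description of letters and not evidence of binding. Looser forms of each motif were not searched, so a promoter without a match, such as HLA-B or HLA-C for the interferon core, may still hold the element.

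Considered together, 7 of the 9 genes (the 4 heavy chain genes, B2M, TAP1 and TAPBP) stood lowest in the library labelled sh1 and highest in the library labelled sh2, with the control between them. NLRC5 was higher than the control in each shRNA library, and TAP2 ran the other way from TAP1. The median log2 ratio to the control over the 9 genes was -0.19 with the label sh1 and 0.39 with the label sh2, where the medians over all 17801 tested genes were 0.01 and 0.00. Both ratios share the control library. None of the 9 genes passed the test of the pair of shRNA lines against the control (quasi-likelihood test of edgeR, adjusted p = 1 for each), nor did any other gene, so the share called was 0% in either direction. At an unadjusted p under 0.05, this test gave 73 genes higher and 164 lower (0.41% and 0.921% of those tested), none of them among the 9. The spread in it comes from the shRNA lines alone and is taken to hold for the control too. Ratios of single libraries below carry exact 95% intervals that cover counting error only and say nothing on how cultures of 1 line vary.

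**Figure D1:**
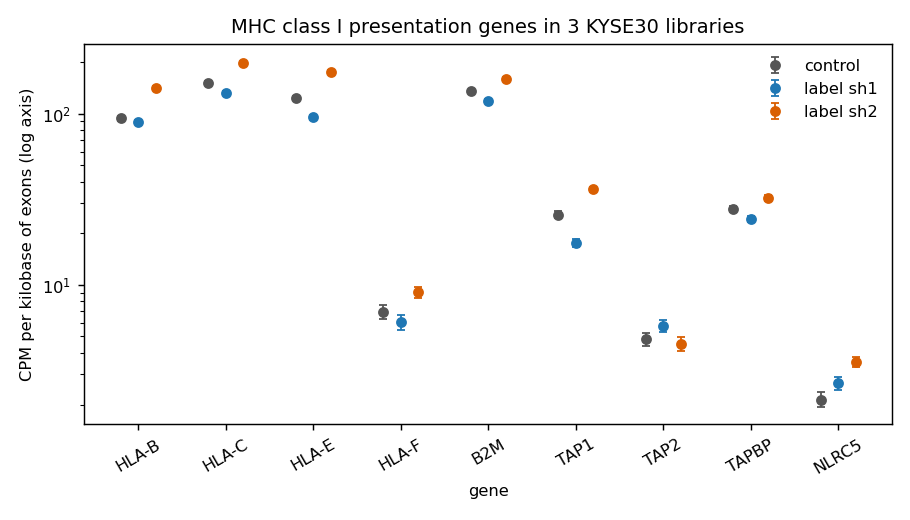
Level of each of the 9 genes in the 3 libraries, as CPM per kilobase of exons on a log axis, with exact 95% Poisson intervals of the counts. The library labelled sh2 is the highest of the 3 for every gene but TAP2, and the library labelled sh1 the lowest for every gene but TAP2 and NLRC5.

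HLA-B and HLA-C encode classical heavy chains, the polymorphic chains that present peptides to CD8 T cells. HLA-B (ENSG00000234745.9, hg38 chromosome 6, 31353872 to 31357188) was at 281.9 CPM in the control, 269.5 CPM with the label sh1 and 424.7 CPM with the label sh2, from 4330, 4099 and 7387 counts. The library labelled sh2 was thus 1.51-fold above the control (interval 1.45 to 1.57), while the library labelled sh1 lay just below it at a ratio of 0.956 (0.916 to 0.998). HLA-C (ENSG00000204525.15, chromosome 6, 31268749 to 31272130) was at 378.2, 329.8 and 495.9 CPM in the same order. Its ratios to the control were 0.872 (0.84 to 0.906) and 1.31 (1.27 to 1.36). The fitted log2 fold change of the shRNA lines to the control was 0.30 (SE 0.35) for HLA-B and 0.13 (SE 0.34) for HLA-C, each within its error.

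HLA-E and HLA-F encode non-classical heavy chains, and HLA-E is the ligand of the inhibitory receptor CD94/NKG2A of natural killer cells. HLA-E (ENSG00000204592.8, chromosome 6, 30489467 to 30494205) was at 365.7 CPM in the control, 282.2 CPM with the label sh1 and 520.5 CPM with the label sh2. Its ratios to the control were 0.772 (0.742 to 0.803) and 1.42 (1.38 to 1.47), so that the library labelled sh2 held 1.84 times (1.78 to 1.91) the level of the library labelled sh1. This was the widest gap between the shRNA libraries among the 4 heavy chain genes. HLA-F (ENSG00000204642.13, chromosome 6, 29722775 to 29738528) was the least abundant of these 4, at 30.1, 26.2 and 39.3 CPM. Its ratios were 0.8705 (0.7595 to 0.997) and 1.30 (1.16 to 1.47), close to those of HLA-C.

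B2M, which encodes the light chain shared by every class I molecule, had the same order of libraries as the heavy chains. B2M (ENSG00000166710.17, chromosome 15, 44711477 to 44718877) was at 824.5, 724.4 and 974.3 CPM in the control, sh1 and sh2 libraries, with ratios of 0.8785 (0.856 to 0.901) and 1.18 (1.16 to 1.21). It lies outside the MHC, as does NLRC5, whereas the other 7 genes sit within a stretch of chromosome 6 from 29722775 to 33314387. The 133 other tested genes of that stretch had a median log2 ratio to the control of 0.00 with the label sh1 and 0.06 with the label sh2, and 73 of them had a ratio above 1 in the latter (49.7% of all tested genes did). In each shRNA library 16 of the 133 were at least 1.5-fold above the control. Of all tested genes, 11.7% were with the label sh1 and 10.2% with the label sh2.

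TAP1 and TAP2 encode the subunits of the peptide transporter, which works as a heterodimer, and their transcripts did not follow each other. TAP1 (ENSG00000168394.10, chromosome 6, 32845209 to 32853978) was at 117.6 CPM in the control, 80.35 CPM with the label sh1 and 165.1 CPM with the label sh2. TAP2 (ENSG00000204267.13, chromosome 6, 32821833 to 32838780) was at 30.7, 36.9 and 28.9 CPM in the same order. TAP1 had the lowest ratio of the 9 genes with the label sh1, at 0.6835 (0.635 to 0.735), and was 1.40-fold above the control (1.32 to 1.49) with the label sh2. TAP2 was 1.20-fold above the control (1.06 to 1.36) with the label sh1, and with the label sh2 its ratio of 0.939 had an interval that includes 1 (0.827 to 1.07). The libraries labelled sh2 and sh1 differed 2.05-fold in TAP1 (1.92 to 2.20), whereas for TAP2 the ratio was 0.782 (0.692 to 0.884). TAP1 alone among the 9 was past 2-fold between the shRNA libraries, where 7.51% of all tested genes were at least 2-fold higher.

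The TAP1 to TAP2 ratio within a library does not depend on any scaling between libraries. It was 3.83 counts of TAP1 per count of TAP2 in the control (3.46 to 4.24), 2.18 with the label sh1 (1.97 to 2.41) and 5.72 with the label sh2 (5.20 to 6.30). The 3 intervals do not overlap. The fitted log2 fold changes were 0.06 (SE 0.42) for TAP1 and 0.10 (SE 0.37) for TAP2, since the shRNA libraries lay on opposite sides of the control. Reads may be missing from the TAP2 count, because 32.3% of its exonic bases are also exons of ENSG00000250264 on the same strand. That gene was counted 0 times in each library, and the recorded counting command has no option that would assign a read to more than 1 gene.

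**Figure D2:**
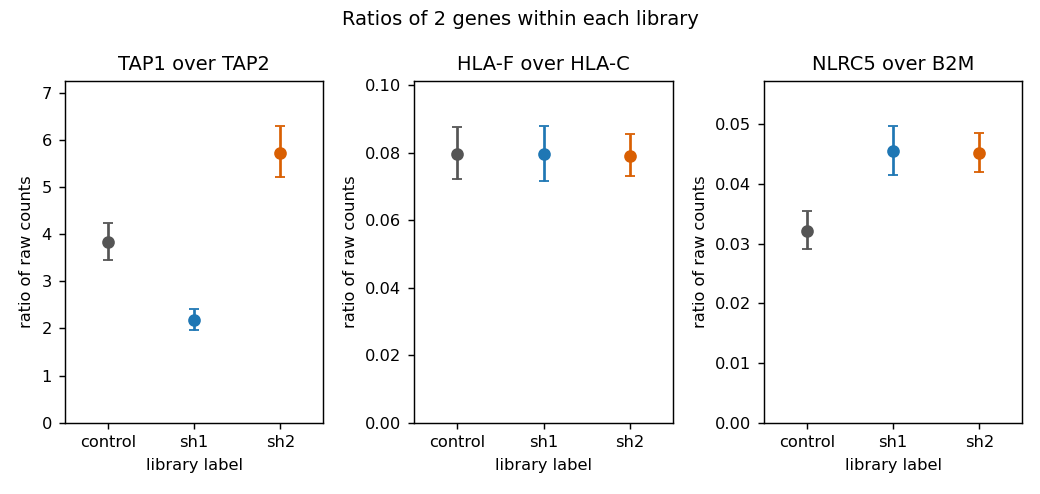
Ratios of raw counts of TAP1 to TAP2, HLA-F to HLA-C and NLRC5 to B2M within each library, with exact 95% intervals for counting error. TAP1 to TAP2 runs from 2.18 with the label sh1 to 5.72 with the label sh2, while HLA-F to HLA-C lies between 0.0792 and 0.0797 in the 3 libraries.

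TAPBP encodes tapasin, which bridges TAP and the empty heavy chain. TAPBP (ENSG00000231925.11, chromosome 6, 33299694 to 33314387) was at 140 CPM in the control, 122.4 CPM with the label sh1 and 162.5 CPM with the label sh2, with ratios of 0.875 (0.822 to 0.931) and 1.16 (1.10 to 1.23). It had the smallest ratio above 1 of the 8 genes that were higher than the control with the label sh2. Its fitted log2 fold change was 0.03 (SE 0.32).

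NLRC5 encodes the transactivator of class I genes, which reaches their promoters through the RFX, CREB/ATF1 and NF-Y proteins. NLRC5 (ENSG00000140853.15, chromosome 16, 56989485 to 57083531) was at 26.5 CPM in the control, 32.9 CPM with the label sh1 and 44.0 CPM with the label sh2. It alone among the 9 was above the control in each shRNA library with both intervals above 1, at ratios of 1.24 (1.09 to 1.42) and 1.66 (1.47 to 1.88). It also had the largest fitted log2 fold change of the 9 genes, 0.54 (SE 0.38), which did not pass (adjusted p = 1 by edgeR). NLRC5 counts per B2M count were 0.0321 in the control (0.029 to 0.0355), 0.0455 with the label sh1 (0.0415 to 0.0497) and 0.0451 with the label sh2 (0.0419 to 0.0485). Both shRNA libraries therefore lay above the control in this ratio and overlapped each other.

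The count of genes on each side of the control can be read against the whole table. With the label sh1, 7 of 9 had a ratio to the control below 1 and an interval below 1, where 48.5% of tested genes had such a ratio and 24.1% such an interval. With the label sh2, 8 of 9 had a ratio and an interval above 1, against 49.7% and 23.3% of tested genes. Between the shRNA libraries, 8 of 9 were higher with the label sh2, with intervals above 1, against 49.9% and 28.1% of tested genes. For 7 of these 8 the direction follows from their ratios to the control, below 1 with the label sh1 and above 1 with the label sh2. Intervals narrow as counts grow, and the lowest mean level among the 9 was 31.9 CPM (HLA-F), so the shares with an interval past 1 compare well-counted genes with a table that holds many sparse ones. By size the differences were moderate. With the label sh1 none of the 9 was 1.5-fold lower or higher than the control, where 13.4% and 11.7% of tested genes were. With the label sh2 HLA-B and NLRC5 were at least 1.5-fold higher (10.2% of tested genes), HLA-B by a margin smaller than its interval. Between the shRNA libraries, 4 of 9 (HLA-B, HLA-C, HLA-E and TAP1) were at least 1.5-fold higher with the label sh2 (16.4% of tested genes). HLA-C (1.503, interval 1.45 to 1.56) lay just above that threshold and HLA-F (1.497, 1.32 to 1.70) just below. Both intervals include 1.5.

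**Figure D3:**
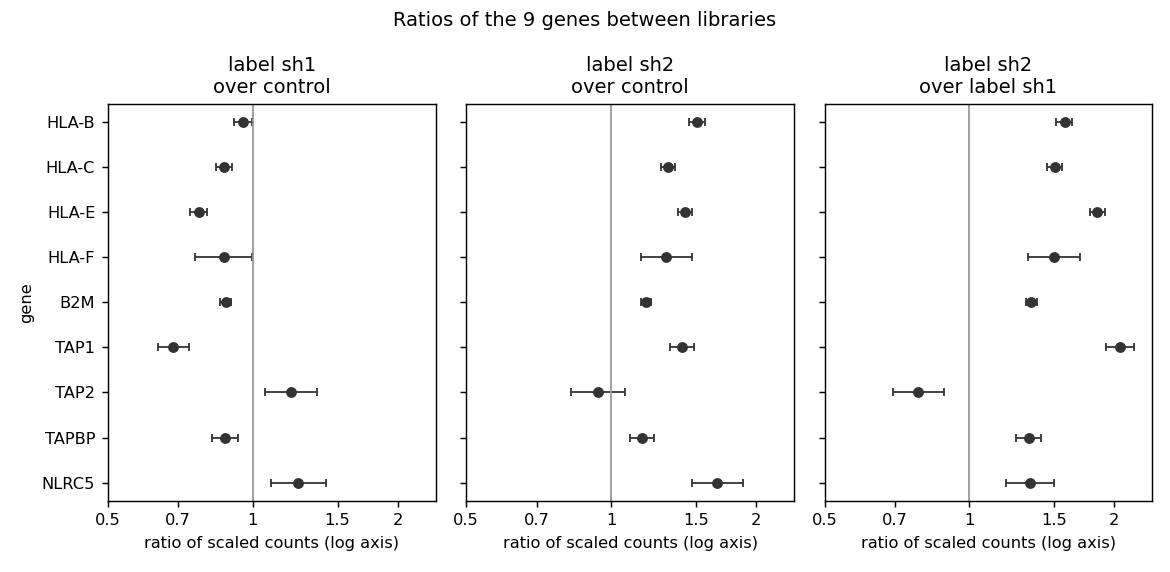
Ratios of scaled counts between libraries for each of the 9 genes on a log axis, with exact 95% conditional intervals for counting error. Of the 9 genes, 7 lie below 1 in the left panel and 8 above 1 in the middle and right panels, with TAP2 opposite to TAP1 in each.

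Per length of merged exons, HLA-C was the most abundant of the 9 in every library, at 150.8, 131.6 and 197.8 CPM per kilobase in the control, sh1 and sh2 libraries. B2M, HLA-E and HLA-B followed, at 135.4, 122.9 and 93.6 CPM per kilobase in the control. HLA-E passed B2M only with the label sh2, at 174.9 against 160 CPM per kilobase. TAPBP and TAP1 formed a middle pair at 27.7 and 25.7 CPM per kilobase in the control, with overlapping counting intervals. TAP1 was below TAPBP with the label sh1 (17.55 against 24.2) and above it with the label sh2 (36.05 against 32.1). HLA-F, TAP2 and NLRC5 were lowest, in that order in each library. HLA-F and TAP2 did not differ beyond counting error with the label sh1 (6.04 and 5.77 CPM per kilobase), and HLA-E and HLA-B came close there (94.9 and 89.5), with intervals that overlap slightly. The order depends on the annotated exon lengths, which for B2M merge transcripts to 6089 bases. For TAP2 the length includes the 32.3% of exonic bases shared with ENSG00000250264, where reads may be missing. Its level may thus be understated, and its place relative to HLA-F is uncertain.

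Ratios between heavy chains separated the genes further. HLA-F kept to HLA-C, with 0.0797, 0.0796 and 0.0792 HLA-F counts per HLA-C count in the control, sh1 and sh2 libraries. HLA-E did not, with 0.967 counts per HLA-C count in the control (0.932 to 1.00), 0.856 with the label sh1 (0.821 to 0.891) and 1.05 with the label sh2 (1.02 to 1.08). HLA-B per HLA-C count was lowest in the control, at 0.745 (0.7165 to 0.775), against 0.817 (0.784 to 0.852) and 0.8565 (0.83 to 0.884). Summed over the 4 heavy chain genes, reads per exonic base came to 2.76 times those of B2M in the control, 2.71 times with the label sh1 and 3.27 times with the label sh2.

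Heavy chain genes resemble each other, so shared sequence limits these comparisons. Of the 50-base stretches in annotated HLA-B transcripts (GENCODE 29), 2.72% also occur in transcripts of another gene, and the share was 5.38% for HLA-C, 4.34% for HLA-E and 0.98% for HLA-F. No stretch of B2M or NLRC5 was shared. How reads from the KYSE30 alleles aligned to the reference alleles was not tested. Opposite-strand exons cover 17.99% of HLA-B, 28.47% of HLA-F and 9.96% of TAP1. Their partners ENSG00000271581 (58.8, 51.75 and 76.5 CPM), opposite HLA-B, and PSMB8-AS1 (25.45, 18.7 and 36.05 CPM), opposite TAP1, had the same order of libraries as the genes they overlap. Opposite HLA-F, ENSG00000225864 (9.05, 8.42 and 12.1 CPM) had that order too, while HLA-F-AS1 did not, at 3.45, 2.83 and 1.84 CPM. RPL23AP1, also opposite HLA-F, had 0 counts in each library. Reads of such pairs cannot be told apart unless strands were separated. With the partners' counts added, the log2 ratios with the labels sh1 and sh2 were -0.08 and 0.56 for HLA-B, -0.53 and 0.49 for TAP1, and -0.18 and 0.32 for HLA-F.

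Of 6 genes of the immunoproteasome, which makes peptides for class I, and its activator, none passed the test in either direction. Their median log2 ratio was -0.23 with the label sh1 and 0.32 with the label sh2. PSMB8, an interferon-inducible catalytic subunit, was at 13.2, 11.4 and 25.4 CPM in the control, sh1 and sh2 libraries, and PSMB10, another, at 17.6, 14.8 and 28.4 CPM. PSMB9, the remaining inducible subunit, was at 28.3, 15.65 and 40.5 CPM. With the label sh1 its ratio to the control was 0.553 (0.47 to 0.649). The intervals of PSMB8 (0.703 to 1.065) and PSMB10 (0.702 to 1.008) included 1 there. PSME2, a subunit of the PA28 activator, was at 84, 91.3 and 87.4 CPM. The 3 constitutive catalytic subunits, which the inducible ones replace, had medians of 0.06 and -0.28 and none passed. PSMB6 was at 144.6, 160.2 and 108 CPM, PSMB5 at 79.8, 83.25 and 65.9 CPM and PSMB7 at 296.2, 306.4 and 291.5 CPM. With the label sh2, PSMB8, PSMB9 and PSMB10 were thus above the control and PSMB5 and PSMB6 below it. The ratio of PSMB7 was 0.984, with an interval that includes 1 (0.945 to 1.02).

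Of 7 genes of peptide loading and trimming, none passed the test, and their medians were -0.17 and -0.05. The chaperone CALR, which holds the heavy chain in the loading complex, was at 970, 726.3 and 825.4 CPM, and PDIA3, its disulfide isomerase partner, at 340.1, 250 and 304.2 CPM. Each was lower than the control in both shRNA libraries. ERAP2, an aminopeptidase that trims peptides, was at 99.5, 98.8 and 148.2 CPM and was high only in the library labelled sh2.

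None of 9 genes, the promoter-binding partners of NLRC5 together with its class II counterpart CIITA, passed either, with medians of -0.05 and 0.06. NFYB, a subunit of NF-Y, was at 19.8, 30.8 and 29.15 CPM, ATF1 at 21.5, 28.1 and 32.4 CPM, and RFX5, the DNA-binding subunit of RFX, at 53.3, 33.2 and 39.55 CPM. The first 2 were higher and RFX5 lower than the control in each shRNA library. Of 15 genes of interferon and NF-kB signalling, none passed, and the medians were 0.01 and 0.24. JAK2, a kinase of the interferon gamma receptor, was at 11.7, 15.1 and 19.95 CPM, the interferon receptor chain IFNAR1 at 43.55, 58.85 and 60.8 CPM, and the feedback inhibitor SOCS1 at 2.93, 4.27 and 3.79 CPM. All 3 exceeded the control in each shRNA library, but both SOCS1 intervals include 1 (0.98 to 2.18 and 0.87 to 1.94). They were named for the size of their fitted fold change and do not stand for the list. Of the 15 genes, 7 had a ratio below 1 with the label sh1 (48.5% of tested genes) and 4 with the label sh2 (50.3%).

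Interferon targets outside antigen presentation had medians of the same signs and a wider range. None of the 18 passed over all genes, and MX2 and XAF1 had unadjusted p = 0.0358 and 0.00808 by edgeR. With the label sh2, 17 of 18 had a ratio above 1 (49.7% of tested genes) and the median log2 ratio was 0.76. With the label sh1, 12 of 18 had a ratio below 1 (48.5% of tested genes) and the median was -0.16. XAF1 was at 4.17, 9.93 and 18.2 CPM, MX2 at 4.62, 7.04 and 20.5 CPM, and GBP2, a guanylate-binding protein gene, at 23.2, 2.89 and 15.1 CPM. These genes, named for the size of their fitted fold change, do not stand for the list. XAF1 and MX2 exceeded the control with the label sh1, and GBP2 alone was below it with the label sh2. The difference of each list from the 9 genes was not tested.

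Other cell-surface ligands differed among themselves. Of 10 genes of class I-like molecules and natural killer ligands, 7 had enough counts to be tested and none passed, with medians of -0.29 and 0.14. MR1, which presents vitamin B metabolites, was at 49.15, 25.2 and 65.6 CPM, and so had the order of libraries seen for the heavy chains. ULBP2, a ligand of NKG2D, was at 10.1, 7.56 and 11.15 CPM. MICB, another, was at 46.5, 40.4 and 28.1 CPM and was lowest with the label sh2. Of 9 class II genes, 7 were too sparse to be tested. HLA-DMA, which edits class II peptides, alone had a mean of at least 1 CPM, at 2.02, 2.30 and 3.68 CPM.

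**Figure D4:**
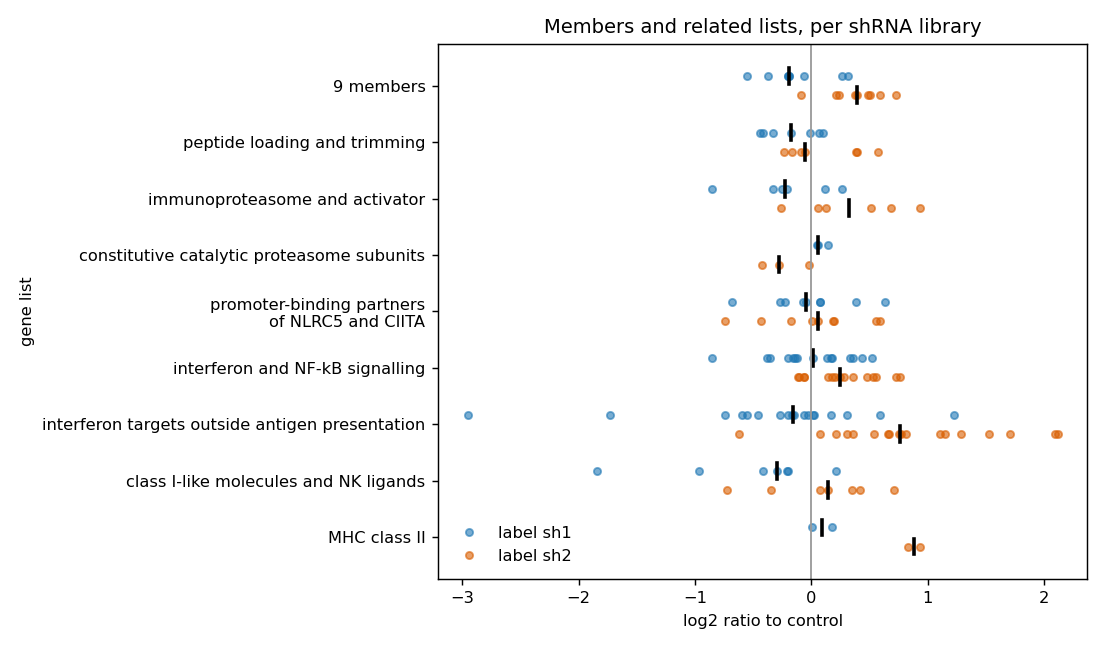
Log2 ratio to the control of the 9 genes and of the tested genes of 8 related lists, with 1 point per gene for the library labelled sh1 and 1 for the library labelled sh2, and black bars at the medians. The medians lie at -0.19 and 0.39 for the 9 genes, and at -0.16 and 0.76 for interferon targets outside antigen presentation.

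By the distance between a gene's pair of log2 ratios and the median pair of the 9, among other genes with an official symbol and a mean of at least 20 CPM, the 5 nearest were TXNRD1, GRN, DNASE1L1, MCRIP1 and NFKBIL1, none of them on the related lists. TXNRD1, a thioredoxin reductase, was at 618.3, 538.9 and 808.4 CPM in the control, sh1 and sh2 libraries. GRN, the progranulin gene, was at 216.6, 188.9 and 283.1 CPM. Their distances on the log2 scale were 0.0068 and 0.0073. Likeness over 3 libraries is a description, and many genes can match so short a pattern.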

How the data were processed

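RNA from 3 KYSE30 lines was sequenced, with 1 library for the control and 1 for each shRNA. The authors deposited raw counts of reads per gene, made with featureCounts 1.6.4, keeping primary alignments, with the strand option set to 1 and an hg38 annotation, per the file headers. The submitters' processing notes name TopHat2, HTSeq and hg19 instead. Which kit made the libraries is not stated. Coordinates are those of the table, and start and end were identical in GENCODE 29 for the 52179 identifiers found there in the same version. HLA-B, HLA-C, B2M and TAP1 were not among these, so their GENCODE 29 transcripts are of another version. Gene names came from a table that matched 56558 of 60554 identifiers.

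The 17801 genes kept by filterByExpr were fitted, after TMM scaling of the library totals, in R 4.3.3 with edgeR 4.0.16 (quasi-likelihood test, Benjamini-Hochberg adjustment over all tested genes at 0.05). The fit had 1 residual degree of freedom. CPM use the scaled library totals, log2 ratios use a prior count of 2, and SE is the absolute log2 fold change over the square root of F. Intervals at 95% are exact conditional ones for ratios and exact Poisson ones for levels, for counting error only, since reads without molecular identifiers are not independent molecules. Alternatives used DESeq2 1.42.0, limma 3.58.1, other scalings, no filter, another prior count and each shRNA library alone. Adding opposite-strand counts was chosen after seeing the data.

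The 9 genes and the 8 related lists were chosen with earlier results of these data known. Named from each list were up to 3 genes averaging 1 CPM or more that had the largest absolute log2 fold change, beside the marker genes, overlap partners and 5 genes nearest in pattern. PSMB9 was named in addition, as the remaining inducible catalytic subunit. Marker genes, overlap partners and ratios between genes were singled out for description and not tested.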

Additional observations from a re-analysis of the deposited data

How the results depend on the processing

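No call among the 9 genes depended on the processing: the number called was 0 with DESeq2's size factors, total counts only, no filter beyond a count above 0, DESeq2, edgeR's likelihood ratio test and limma-voom, and their smallest unadjusted p in any of these lay between 0.176 and 0.238. Over all genes, the quasi-likelihood test called 0 higher and 0 lower. Without the filter it called 4 higher and 37 lower, DESeq2 1 and 14, the likelihood ratio test 2 and 36, limma-voom 0 and 1, and total counts only 0 and 1. The cause was not tested.

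Of 54 fitted fold changes of the 9 genes under these settings, 53 kept their sign, the exception being TAP1 at -0.027 with limma-voom. All 54 ratios of single libraries under other scalings or a prior count of 0.5 kept their sign and stayed within their counting interval. With a fold of 2, the number of the 9 genes past the threshold was 0 in place of 2 for the label sh2 over the control, and 1 in place of 4 for the label sh2 over the label sh1, as a stricter fold requires.

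For 8 of the 9 genes the sign of the fitted fold change differs between the shRNA libraries, and for NLRC5 it does not (0.31 with the label sh1 alone and 0.73 with the label sh2 alone). With 1 shRNA library left out, which leaves no test, the median over the 9 genes lay at -0.19 with the label sh1 alone and at 0.39 with the label sh2 alone, against 0.12 with both. The range was -0.065 to 0.59 for HLA-B, -0.20 to 0.39 for HLA-C, -0.37 to 0.51 for HLA-E, -0.20 to 0.38 for HLA-F, -0.19 to 0.24 for B2M, -0.55 to 0.49 for TAP1, -0.09 to 0.26 for TAP2 and -0.19 to 0.21 for TAPBP. No paired analysis was possible because the control is 1 library with no replicate number.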
